A study of Drosophila melanogaster with 2 samples.

Results

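The regions described here are gene promoters in Drosophila melanogaster embryos where the zinc finger protein gfzf gave only weak chromatin immunoprecipitation peaks. Each region is a line of the relaxed peak list made from both replicates pooled. Its summit fell at most 250 bp from a protein-coding gene's transcription start site (TSS), no TSS of that gene had a summit of the authors' thresholded (optimal) peak set within 250 bp, and each replicate's own relaxed list had a summit within 100 bp. By this rule 1331 of the 30000 pooled lines were members, at 1369 of 13968 protein-coding genes (9.80%). For the same gene set, 4609 genes (33.0%) had an optimal summit within 250 bp of a TSS and are called bound, and 6764 genes had no pooled line there. The remaining 1226 genes (8.78%) had a pooled line that was not found in both replicates. All members were chosen by peak strength and position, so their strength below is a description and was not tested.

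The chromatin came from whole embryos of both sexes, 0 to 24 h after laying, of a transgenic fly line that carries gfzf fused at its C-terminus to enhanced green fluorescent protein. It was sonicated and precipitated with an antibody against GFP, and the DNA was sequenced for 2 biological replicates, which form 1 group. The sources used here do not give the read depth, the promoter that drives the fusion or whether the native gfzf gene was kept. In whole embryos, weak binding in many cells and strong binding in few cells cannot be told apart.

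The gfzf protein combines FLYWCH-type zinc fingers with a domain of the glutathione S-transferase fold, and its gene contributes to the inviability of hybrids between Drosophila melanogaster and a sister species. In flies, promoters of genes that every cell uses typically carry short elements such as the DNA replication-related element (DRE), which the factor Dref binds, and Motif 1, which the factor M1BP binds. Promoters of developmentally regulated genes more often carry a TATA box, an Initiator, a downstream promoter element (DPE) or GAGA repeats, which GAGA factor binds.

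The sequences below are shown because they hold the elements on which the sub-threshold promoters resembled or differed from bound promoters. They come from the dm6 reference, are written 5′ to 3′ on the strand of the gene, and carry the element in capitals. The genes are members with strong pooled lines, apart from the last, the bound gene Unc-76. The windows of Atg14 and Ufsp2 cross the TSS into the first exon, and the others lie upstream of the TSS. DRE is TATCGATA, found from 100 bp upstream to 50 bp downstream of the TSS in 7.53% of all 13968 promoters. In the same window and on either strand, the E-box CAGCTG was found in 12.1%, the GAGA repeat GAGAGAG in 3.44%, the Motif 1 core GGTCACAC in 6.67% and Motif 7 in 7.24% of all promoters. Motif 7 matches can overlap an E-box. The TATA box TATAAA, starting from 40 to 20 bp upstream on the gene's strand, was found in 7.85%. A match is a run of letters, not a measured binding site.
Atg14, DRE, chr3R:29116381-29116410, plus strand: aggtgtcctcaTATCGATAgcgataatagc
Ufsp2, DRE, chr3L:15576566-15576595, plus strand: agacactcagtTATCGATAaaaaattgcca
Tudor-SN, Motif 7, chr3L:264381-264440, minus strand: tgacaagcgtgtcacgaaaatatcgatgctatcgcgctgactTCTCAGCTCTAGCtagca
Ddrgk1, Motif 7, chr3R:21215010-21215069, plus strand: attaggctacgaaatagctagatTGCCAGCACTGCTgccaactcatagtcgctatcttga
Pmvk, E-box, chr2L:19580357-19580416, minus strand: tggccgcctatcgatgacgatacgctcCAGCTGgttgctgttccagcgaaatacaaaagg
melt, GAGA, chr3L:7134390-7134449, plus strand: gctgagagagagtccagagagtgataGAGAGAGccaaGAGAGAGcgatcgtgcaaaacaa
GstD1, TATA box, chr3R:12369269-12369328, minus strand: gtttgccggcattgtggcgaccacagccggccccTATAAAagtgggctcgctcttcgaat
mRpL24, TATA box, chr2L:4945362-4945421, minus strand: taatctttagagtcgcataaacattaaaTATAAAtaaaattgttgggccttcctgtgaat
Ggt-1, none of the 11 elements searched, chrX:18512522-18512581, minus strand: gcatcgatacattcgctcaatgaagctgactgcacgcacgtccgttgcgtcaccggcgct
CG18131, Motif 1 core, chr2L:1500647-1500706, minus strand: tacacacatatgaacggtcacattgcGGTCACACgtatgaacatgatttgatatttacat
Unc-76, bound gene, Motif 1 core, chrX:2080550-2080609, plus strand: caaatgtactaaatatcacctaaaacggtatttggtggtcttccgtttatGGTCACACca

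The member lines began directly below the weakest optimal line. Signal is the authors' strength value per peak. Its scale is unknown, so values are compared only within a list. The optimal set was exactly the 5007 strongest of the pooled lines. Among the strongest members, just outside it, were those at l(3)L1231 (signal 88.22, rank 5013), Tudor-SN (88.21, rank 5017) and Atg14 (88.19, rank 5018). Just inside it lay lines at CG18596 (88.43, rank 5007), Pax (88.45, rank 5006) and pins (88.46, rank 5005). The step between the first member and the last optimal promoter line was therefore small against the spread of the members, whose signal ran from 13.8 to 88.2 with a median of 47.1 and quartiles of 31.8 and 66.4. The 4188 optimal lines at promoters had a median of 508.

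The rule's demand for a summit in both replicates may itself favour strong lines. With that limit, the members stood high in the list below the threshold. Their pooled ranks ran from 5013 to 27477 with a median of 7261, and 991 of 1331 (74.5%) were within the first 10000 lines. The deposited −log10 q-value was at the list's highest value, 4.18, in 702 members (52.7%), as it was in 7483 pooled lines. It exceeded 2 in 1002 members (75.3%) and its lowest value among them was 0.373. At the lower end were a line shared by CG1636 and CG15343 (signal 13.8) and lines at CG9578 (14.3), Tre1 (14.8), Klp54D (15.3) and 7B2 (15.4). Tre1 is a G protein-coupled receptor of germ cell migration, Klp54D a kinesin-like motor protein and 7B2 a neuropeptide-processing cofactor.

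Requiring both replicates kept 1331 of the 3028 pooled lines at promoters of genes without an optimal summit (44%, exact 95% interval 42.2 to 45.7). Of the others, 931 had a summit in replicate 1 only, 504 in replicate 2 only and 262 in neither. Among members, the rank of the matched line ran from 2108 to 29944 in replicate 1 (median 7958) and from 2074 to 29842 in replicate 2 (median 8698). The ranks in the 2 replicates were within 2-fold of each other for 1085 members (81.5%), against 4039 of the 4075 optimal promoter lines that were found in both (99.1%). Spearman's rho between the replicates' signals was 0.478 over the 1331 members, which is a description of a range truncated by the rule. The matched summit lay a median of 10 bp away in replicate 1 and 22 bp away in replicate 2, against 3 and 6 bp for optimal promoter lines. Members had larger summit distances and fewer like ranks than the optimal lines. By the rule they fell below the authors' threshold on these same replicates, so this contrast is at least partly fixed by the selection.

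**Figure D1:**
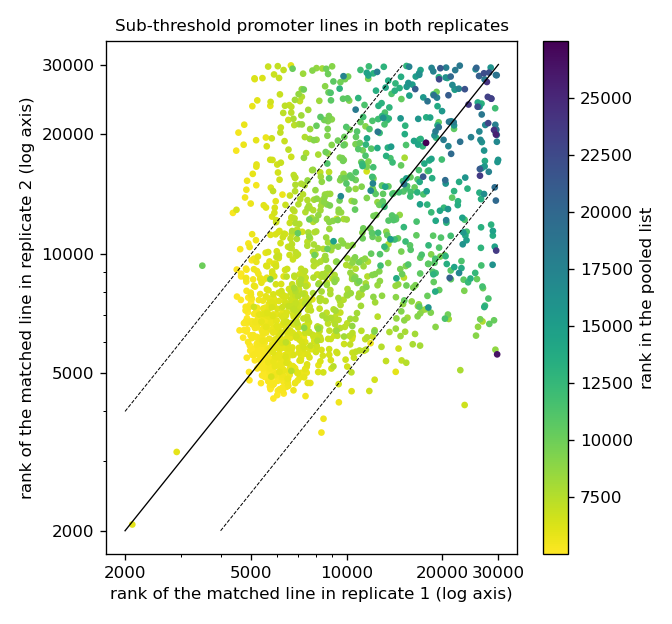
Each point is 1 of the 1331 sub-threshold promoter lines, placed by the rank of its matched line in replicate 1 (x, log axis) and replicate 2 (y, log axis), with rank 1 the strongest, and coloured by its rank in the pooled list. The solid line marks equal ranks and the dashed lines a 2-fold difference, within which 1085 points lie.

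Individual genes show what these ranks look like. Tudor-SN, a tudor-domain nuclease of the RNA interference machinery, had rank 5485 in replicate 1 and 6986 in replicate 2. Ggt-1, a gamma-glutamyl transpeptidase of glutathione metabolism, had ranks 5741 and 4553. Both lay within 2-fold of rank 5007 in each library. Atg14, a subunit of the lipid kinase complex that starts autophagy, had rank 4497 in replicate 1 and 9118 in replicate 2. Pmvk, the phosphomevalonate kinase of isoprenoid synthesis, had ranks 4634 and 7644, and Spg7, a mitochondrial inner-membrane protease, had ranks 4942 and 5868. For these last 3 genes the line was strong enough for the first 5007 in replicate 1 only.

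A few members differed widely between the libraries. The line at Cals, which encodes calsyntenin, had rank 23488 in replicate 1 and 4152 in replicate 2, a ratio of 5.66. The line at mdy, a diacylglycerol acyltransferase, had ranks 5116 and 27682, and that at CG43102 had ranks 5123 and 27551. A line of CG9578 had ranks 29735 and 5572, and the line shared by CG7182 and GAPcenA had ranks 5648 and 29642. These 5 lines had the largest rank ratios, 3 of them stronger in replicate 1 and 2 in replicate 2. Over all members, 729 (54.8%) ranked higher in replicate 1.

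Ranking within the first 5007 lines occurred in 1 replicate for 121 members (9.09%) and in both for 3 members, ZnT41F, CG2909 and CG11367, which were named after their values were seen. The zinc transporter gene ZnT41F had ranks 4931 and 4793 but pooled rank 5096. CG2909 had ranks 2108 and 2074 but pooled rank 5906, and CG11367 had ranks 2909 and 3161 but pooled rank 5962. All 3 had an optimal summit close by, at 208, 284 and 239 bp, and their replicate summits lay 39 to 83 bp from the pooled one. Over the 1331 members an optimal summit within 500 bp was found for 63 (4.73%) and within 1 kb for 120 (9.02%, exact 95% interval 7.53 to 10.7). The nearest was 199 bp away and the median distance was 4712 bp, so most members stood apart from the optimal peaks.

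Sub-threshold summits lay just upstream of the TSS but more loosely than optimal ones. The median offset was −29 bp (quartiles −88 and 26), against −37 bp (quartiles −70 and −10) for the 4188 optimal promoter lines. Of the members 63.8% lay upstream (exact 95% interval 61.1 to 66.4), against 81.5% of the optimal lines (80.3 to 82.7). The first 100 bp upstream held 42.9% of the members (40.2 to 45.6) and 67.5% of the optimal lines (66.1 to 68.9). The matched summits of the replicates gave member medians of −30 bp in replicate 1 and −29 bp in replicate 2. The rule limits every offset to 250 bp, for both groups alike.

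**Figure D2:**
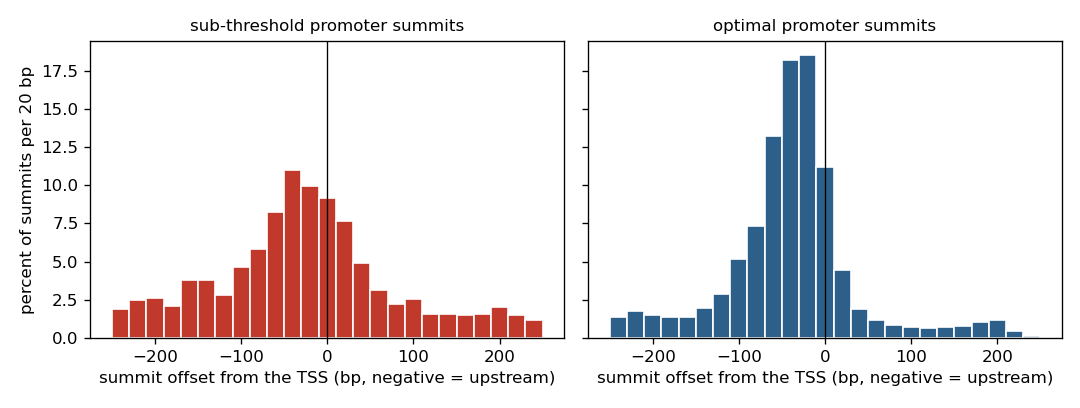
Percent of summits per 20 bp of offset from the TSS (x, bp, negative upstream) for the 1331 sub-threshold promoter lines (left) and the 4188 optimal promoter lines (right). Both distributions have their highest bars upstream of the TSS, and the sub-threshold one is flatter, with 66.8% of its summits within 100 bp against 80.2%.

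Position changed within the members with rank. Within 100 bp of the TSS lay 80.8% of the 354 members at pooled ranks 5008 to 6000 (exact 95% interval 76.3 to 84.8). The share was 68.3% at ranks 6001 to 8000, 57.7% at ranks 8001 to 12000 and 54.7% of the 212 members beyond (47.8 to 61.5). The strongest members were placed at least as closely as the weakest optimal promoter lines, those at ranks 4001 to 5007, of which 68.8% lay within 100 bp (65.2 to 72.4). These sets were chosen differently. The optimal lines needed no replicate summit and could stand beside a stronger optimal line of the same gene. The median offset was −37 bp in the strongest of these 4 groups of members and 2 bp in the weakest. These rank groups were chosen after first values were seen.

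Among promoter elements, the sub-threshold promoters held DRE and Motif 7 about as often as bound promoters did and the E-box slightly more often, and all of them more often than promoters without a pooled line. For this comparison each gene was represented by 1 TSS picked without regard to peaks. DRE was present in 189 of 1369 sub-threshold promoters (13.8%, exact 95% interval 12 to 15.7), in 14.4% of the 4609 bound promoters (13.4 to 15.5) and in 1.91% of the 6764 promoters without a pooled line (1.59 to 2.26). Motif 7 was present in 11.7% of sub-threshold promoters (10 to 13.5), 13.6% of bound promoters (12.6 to 14.6) and 2.22% of those without a line. The E-box was present in 20.8% (18.7 to 23.1), 16.8% (15.7 to 17.9) and 6.89%. At summits its share varied with rank inside the optimal set, as given below. Ufsp2, which encodes the protease of the ubiquitin-like modifier UFM1, carried a DRE, an E-box and an Initiator, and Ddrgk1, a component of the same modification pathway, carried Motif 7. The intervals treat promoters as independent and cover counting only.

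The Motif 1 core was nearly missing from the sub-threshold promoters. It was present in 7 of 1369 (0.511%, exact 95% interval 0.206 to 1.05), against 890 of 4609 bound promoters (19.3%, 18.2 to 20.5) and 32 of 6764 without a pooled line (0.473%, 0.324 to 0.667). Of all 932 promoters with this core, 0.751% were sub-threshold and 95.5% were bound, whereas of the 1052 promoters with a DRE 18% were sub-threshold and 63.3% were bound. Motif 6 showed the same order, with 0.438% of sub-threshold promoters, 4.45% of bound promoters and 0.207% of those without a line. Among the 7 were CG18131, whose sequence is printed above, and mRpL27, a protein of the mitochondrial ribosome. The gene of the factor that binds Motif 1, M1BP, was itself a member, with pooled rank 6867, and its promoter held none of the 11 elements.

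The scarcity of the Motif 1 core was not limited to the lines below the threshold. Within 50 bp of the summit the core was found at 21.3% of the optimal promoter lines ranked 1 to 1000, at 27.9% of those ranked 1001 to 2000, at 11.6% from 2001 to 3000 and at 2.2% from 3001 to 4000. Among the weakest optimal lines, ranks 4001 to 5007, it was found at 1 of 658 (0.152%, exact 95% interval 0.00385 to 0.844). Members then had it at 1.13% (ranks 5008 to 6000), 0.466%, 0.298% and 0.472% (ranks 12001 to 30000) of their summits. The decline thus ended inside the optimal set, at about rank 4000, and the threshold itself marked no step.

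DRE and Motif 7 ran the other way among the strong lines and stepped down only among the weaker members. DRE lay within 50 bp of the summit at 4.87% of the optimal promoter lines ranked 1 to 1000 and at 12.3% of those ranked 4001 to 5007. Among members it was found at 13.8% at ranks 5008 to 6000 (10.4 to 17.9), 10.3% at ranks 6001 to 8000, 3.57% at ranks 8001 to 12000 (1.86 to 6.16) and 2.83% beyond. Motif 7 was found at 11.6%, 8.16%, 3.57% and 1.42% of the members in the same 4 groups. GAGA repeats were found at 2.26%, 3.96%, 3.27% and 4.25%, with intervals that overlap, against 0.692% of all optimal promoter lines (0.464 to 0.993). Of the optimal promoter lines ranked 4001 to 5007, 1.52% held GAGA repeats (0.731 to 2.78). That interval overlaps the one of members at ranks 5008 to 6000 (0.981 to 4.4). In flanking windows 500 bp to either side of the summit, 0.451% of the members' windows held a DRE and 0.939% Motif 7, so these letters were concentrated at the summits, where over all members 8.34% and 6.84% held them. The E-box was less so, at 12.4% of members' summits and 5% of their flanks. By rank, the E-box was found at 5.99% of optimal promoter lines ranked 1 to 1000 and at 15.8% of those ranked 4001 to 5007. Members in the 4 rank groups had it at 14.4%, 12.4%, 12.5% and 8.96%, so they did not exceed the weakest optimal lines.

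**Figure D3:**
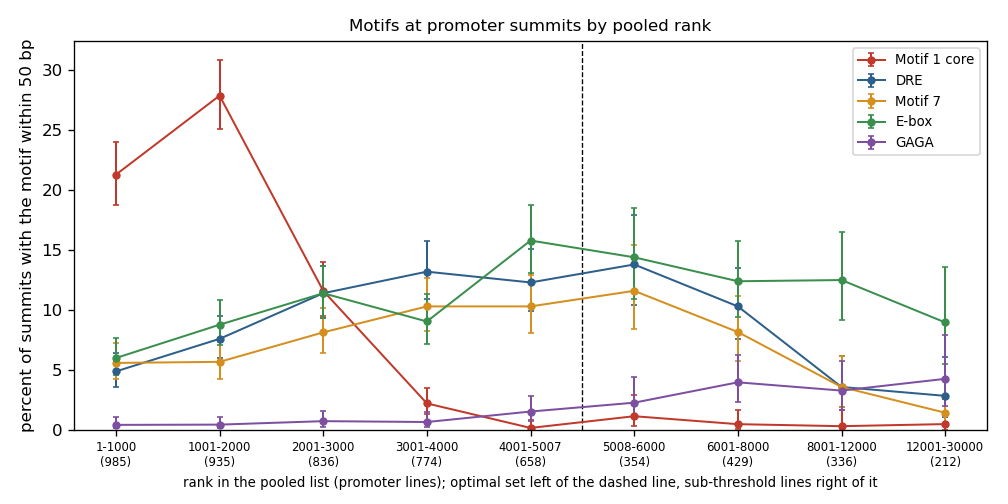
Percent of promoter summits with each element within 50 bp (y) by rank in the pooled list (x, number of lines in parentheses), with exact 95% intervals over lines. Optimal lines are left of the dashed line and sub-threshold lines right of it. The Motif 1 core falls to 0.152% before the threshold, while DRE stays at 13.8% just past it and is at 3.57% or less from rank 8001 on.

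Elements of regulated promoters were more frequent among sub-threshold than among bound promoters taken over all ranks. For the Initiator, TATA box and DPE, no comparison with the weakest optimal lines was made. The Initiator (TCAGT or TCATT starting from 12 bp upstream to 8 bp downstream of the TSS) was found in 20.5% of sub-threshold promoters (exact 95% interval 18.3 to 22.7), 8.92% of bound promoters (8.11 to 9.78) and 23.5% of those without a pooled line, and in 18.6% of all promoters. GAGA repeats were found in 5.11% (4.01 to 6.42), 1.89% (1.51 to 2.32) and 3.64%. The TATA box was found in 3.65% (2.72 to 4.79), 1.28% (0.976 to 1.65) and 13.4%, so sub-threshold promoters lay between the other groups. Among the members with a TATA box were GstD1, Hsp27, Hsp68 and mRpL24.

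The DPE (AGACG or GGACG and likewise AGTCG or GGTCG, starting from 24 to 36 bp downstream) was found in 9.2% of sub-threshold promoters (7.72 to 10.9), 5.94% of bound promoters and 6.53% of those without a line, and in 6.89% of all. The Zelda site and the CA repeat had intervals that overlapped between the sub-threshold and bound groups. The Zelda site CAGGTAG was found in 0.73% of sub-threshold, 0.564% of bound and 0.816% of all promoters. The CA repeat CACACACA was found in 2.85%, 1.8% and 2.23%, with intervals that overlap between the sub-threshold (2.03 to 3.87) and the bound group (1.44 to 2.23). None of the 11 elements was found in 36.5% of sub-threshold, 35.6% of bound and 52.6% of promoters without a line. Motif 6 was found in 1.62% of all promoters. Median GC content of the window was 42.4%, 41.1% and 41.7% in sub-threshold, bound and line-free promoters.

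**Figure D4:**
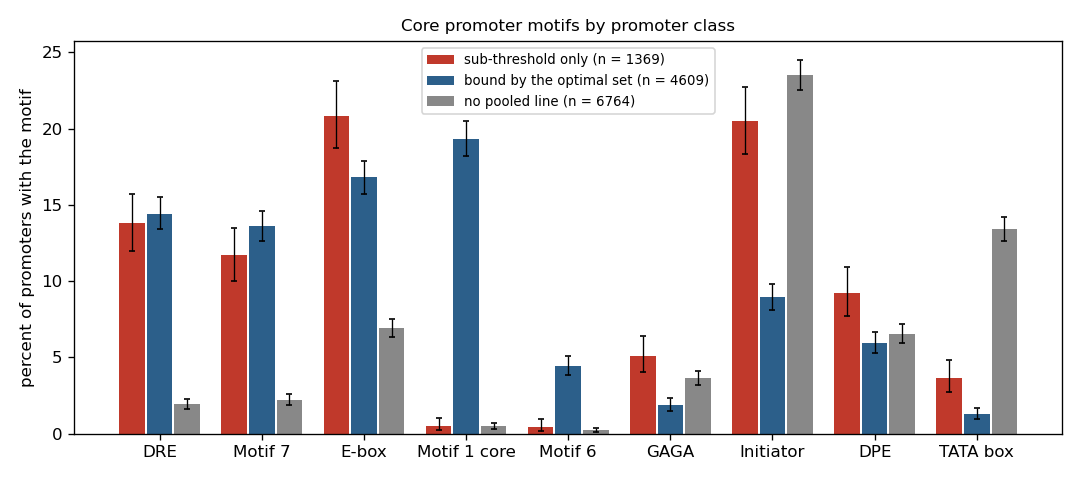
Percent of promoters (y) that hold each element in 1369 sub-threshold promoters (red), 4609 bound promoters (blue) and 6764 promoters without a pooled line (grey), with exact 95% intervals over promoters. Sub-threshold promoters stand with the bound ones for DRE (13.8% against 14.4%) and with the line-free ones for the Motif 1 core (0.511% against 0.473%).

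The genes at these promoters were counted in 28 gene lists and read against the 9.80% of all genes that were sub-threshold and the 33.0% that were bound. Mitochondrial ribosomal proteins had 15 of 75 genes in the sub-threshold class (20%, exact 95% interval 11.6 to 30.8), while 50 were bound. The strongest were mRpL24 (pooled signal 86.6, rank 5079), mRpS18C (82.6, rank 5233) and mRpL27 (77.0, rank 5445), and the weakest was mRpS18B (19.7, rank 17860). The mRpS18C line lay at −64 bp from its TSS but at 19 bp from that of another member gene. For mRpL27 these offsets were −144 and 53 bp. Lines at mRpL46, bonsai and mRpS2 also lay nearer the TSS of another member gene. Cytosolic ribosomal proteins had 7 of 86 (8.14%) against 71 bound, and the 7 were RpS28b, RpL36A, RpL10, RpL12, RpL10Ab, RpS6 and RpL39. Their pooled signals ran from 30.1 for RpL39 to 84.0 for RpS28b with a median of 77.8, while the median over all member genes was 50.7. RpL36A, with a DRE in its promoter, had rank 4798 in replicate 1 and 7343 in replicate 2.

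Cell cycle and replication genes had 5 of 47 in the sub-threshold class (10.6%) against 35 bound. The 5 were Sld5, a subunit of the replication helicase complex (rank 5161), Cdk4, the G1 cyclin-dependent kinase (rank 5295), Bub1, a spindle checkpoint kinase (rank 5697), E2f2, a repressor of the E2F family (rank 5912), and Mcm2, a replication helicase subunit (rank 8591). Sld5 and Bub1 each held a DRE and Motif 7. Bub1 was uneven between the libraries, at rank 5555 in replicate 1 and 19630 in replicate 2. Of 48 proteasome genes, 3 were sub-threshold, the regulatory particle subunit Rpn3 and the ATPase paralogs Rpt6R and Rpt3R, and 30 were bound.

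Among 32 regulator genes, 7 were sub-threshold (21.9%, exact 95% interval 9.28 to 40), 21 were bound, 3 had no pooled line and 1 had a line without both replicates. The list held chromatin and promoter-binding factors and also other regulators such as Sxl and tra2. Trl, which encodes GAGA factor, was the strongest of the 7 (signal 83.8, rank 5187), with rank 5100 in replicate 1 and 6161 in replicate 2. The dosage compensation acetyltransferase mof (rank 5371) and the Polycomb group gene Su(z)2 (rank 5593) followed, and both ranked higher in replicate 1 (5181 and 4937) than in replicate 2 (14881 and 10393). The BTB-domain factors psq (rank 5795) and lola (rank 6405) and the Polycomb subunit ph-d (rank 8638) completed the group with M1BP. The near neighbour and paralog of ph-d, ph-p, had no pooled line, and neither did zld or the hybrid incompatibility gene Hmr. Whether reads of ph-d and ph-p could be separated was not tested. The bound genes included gfzf itself (rank 255), Dref (rank 2679), Clamp (rank 791), Sxl (rank 37) and the hybrid incompatibility gene Lhr (rank 3916), and Psc had a pooled line not found in both replicates. The other bound regulators were msl-2, esc, Adf1, Pc, Su(z)12, pzg, su(Hw), Top2, Chro, E(z), Cp190, BEAF-32, pho, Scm, CTCF and tra2, at ranks between 107 for msl-2 and 4092 for tra2.

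Stress genes and detoxification genes were present in both classes. Glutathione S-transferases had 6 of 36 genes in the sub-threshold class (16.7%, exact 95% interval 6.37 to 32.8) and 3 bound. They were GstO2 (rank 5310), GstD1 (rank 5361), GstT2 (rank 5935), GstE12 (rank 5986), GstS1 (rank 7358) and GstE7 (rank 9485), of the omega, delta, theta, epsilon and sigma classes. GstD1 had rank 6302 in replicate 1 and 4754 in replicate 2. Heat shock proteins had 5 of 26 (19.2%) against 6 bound, namely Hsp27, Hsp68, Hsp23 and the neighbours Hsp22 and Hsp67Bc, which shared 1 line. The summit of that shared line (rank 12524) lay at −229 bp from the Hsp22 TSS and −205 bp from the Hsp67Bc TSS. It was nearer the TSS of another member gene, at −20 bp. Stress and DNA damage genes had 6 of 24 (25%, 9.77 to 46.7) against 9 bound, with Hph, the prolyl hydroxylase that senses oxygen, at rank 5474, Ldh, lactate dehydrogenase, at rank 5827 and kay, the Fos protein of AP-1, at rank 7157. Cytochrome P450 genes had 2 of 81 (2.47%, 0.3 to 8.64), Cyp305a1 and Cyp313a4, and 2 bound.

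Developmental regulators were among the genes with few bound promoters. Of 45 signalling ligands and inhibitors, 8 were sub-threshold (17.8%, exact 95% interval 8 to 32.1) and 4 bound. The EGF receptor ligand Krn stood at rank 5070, the Ras pathway inhibitor sty at 5878, the FGF ligand bnl at 6763, the inhibitory Smad Dad at 7292, the Notch ligand Ser at 8312 and the helix-loop-helix inhibitor emc at 9448. The insulin-like peptide Ilp6 and the TNF homolog egr were far weaker, at ranks 17991 and 19047. Neural transcription factors had 8 of 52 (15.4%, 6.88 to 28.1) against 4 bound, running from vvl (rank 7625) and eyg (rank 7947) through grh, pdm2, hth, pros and Lim3 to the glial factor repo (rank 13287). Their median signal was 29, below the 50.7 over all member genes.

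Ecdysone pathway and nuclear receptor genes had 5 of 34 (14.7%) against 5 bound, and these were strong lines. Eip75B (signal 87.7, rank 5033) had rank 5491 in replicate 1 and 4985 in replicate 2. It was followed by ftz-f1 (rank 5570), Hnf4 (rank 5584), ERR (rank 6387) and the ecdysone receptor gene EcR (rank 6445). Segmentation and axis genes had 5 of 50 (10%) against 4 bound, with the cofactor ush (rank 6509), the Dpp target repressor brk (rank 8900) and the mesoderm factor twi (rank 10419), then Doc3 and rho. No Hox gene of 8 was sub-threshold or bound. Notch targets had 1 of 19, E(spl)m8-HLH (rank 8447), and none bound.

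Genes of nerve, muscle and immunity had shares from 5.56% to 16.7%, and the exact 95% interval of each list included the 9.80% of all genes. The dpr, DIP, beat and side families of cell-surface proteins had 6 of 54 sub-threshold genes (11.1%, exact 95% interval 4.19 to 22.6) and 1 bound gene, and side-V was the strongest (rank 5874). Axon guidance and synapse genes had 5 of 48 (10.4%) against 19 bound, among them Nlg2, a neuroligin (rank 5356), Ptp69D, a receptor phosphatase (rank 6332), and Ten-m, a teneurin (rank 7215). Ion channel and receptor subunits had 4 of 44 against 4 bound, with nAChRbeta2, Ca-beta, SK and Shab. Muscle genes had 3 of 36 (8.33%) against 6 bound, and signalling receptors had Eph and fz2, 2 of 36 (5.56%, 0.68 to 18.7), against 15 bound. Regulators of blood, fat body, gut and trachea had 6 of 36 (16.7%, 6.37 to 32.8) against 6 bound, led by the laminin gene LanB1 (rank 6201), ush and bowl. Antimicrobial peptide and immune genes had 5 of 33 (15.2%, 5.11 to 31.9) against 4 bound, namely the recognition proteins PGRP-SA, PGRP-LF and PGRP-SB1, the NF-kappaB factor Dif and Drsl4.

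Several large families were rarely in the class. None of 180 chemoreceptor genes was sub-threshold (upper 95% bound 2.03%) and none was bound, although 11 had a pooled line not found in both replicates. Cuticle proteins had 3 of 120 (2.5%, 0.519 to 7.13), TwdlG, Cpr78Ca and Cpr78Cb, and odorant binding proteins and gut proteases had 1 of 78, iotaTry (rank 15893). The smaller lists were too short to set apart from the 9.80% of all genes. Testis-expressed genes had 2 of 44 (upper 95% bound 15.5%), vis (rank 5196) and achi (rank 6075), which are neighbouring, near-identical homeobox genes, so their reads may not be separable. Actin, tubulin and vesicle paralogs had none of 18 (upper bound 18.5%) against 7 bound, and histone variants none of 6 (upper bound 45.9%) against 5 bound.

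**Figure D5:**
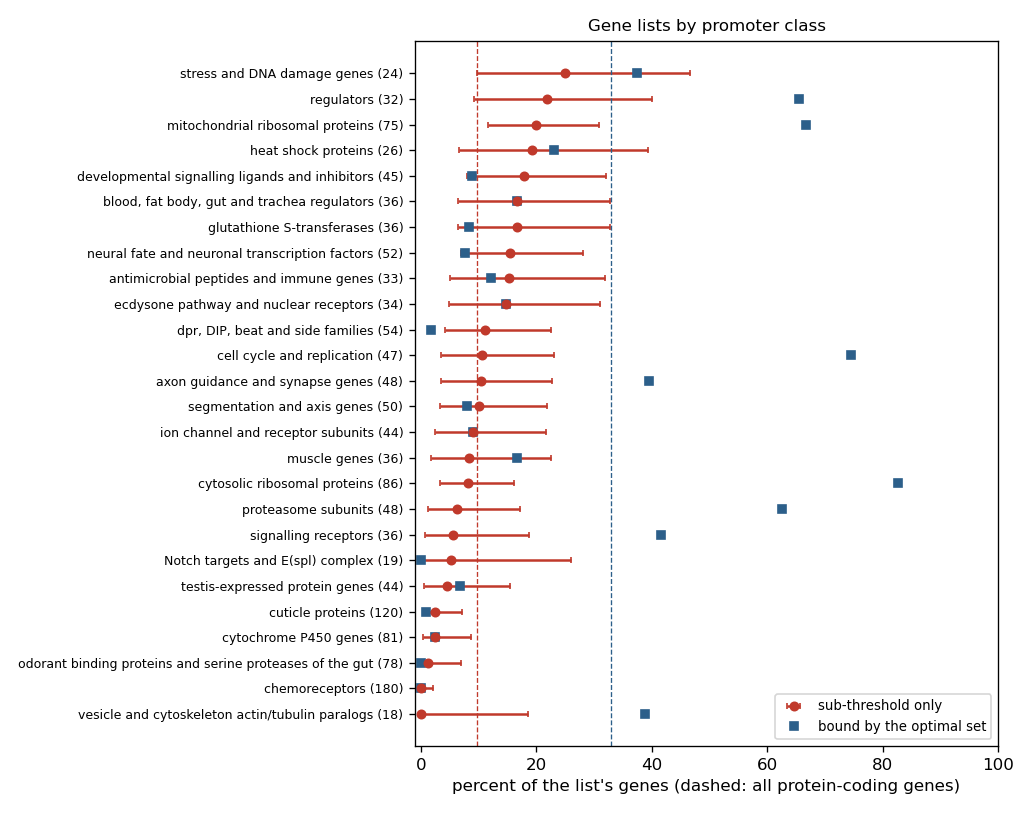
Percent of each list's genes (x, number of genes in parentheses) that were sub-threshold only (red, with exact 95% intervals over genes) or bound by the optimal set (blue), for the lists with at least 18 genes. Dashed lines mark all protein-coding genes at 9.80% and 33.0%. Mitochondrial ribosomal proteins (20%) lie above the red line with their whole interval, and chemoreceptors, cuticle proteins, cytochrome P450 genes, and odorant binding proteins with gut proteases lie below it.

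Gene arrangement also differed between the classes, in part through the rule itself. A divergent protein-coding gene starting within 500 bp upstream was present for 405 of 1369 sub-threshold genes (29.6%, exact 95% interval 27.2 to 32.1), for 49.4% of bound genes (47.9 to 50.8) and for 10.8% of genes without a pooled line (10 to 11.5). That partner was bound for 50 of the 405 (12.3%) and for 86.3% of the bound genes with a partner, shares that the 250 bp rule partly fixes. A single TSS was annotated for 62.5% of sub-threshold, 64.2% of bound and 84% of line-free genes. Median gene length was 2935, 2793 and 1634 bp.

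Lines and genes did not map one to one. A line lay near 2 or more member genes in 156 cases, 123 genes had 2 or more member lines, and 28 lines (2.1%) also lay within 250 bp of a TSS of a bound gene. Every member gene near a shared line was counted in its gene lists, even where another member's TSS lay nearer the summit. The deposited interval was 524 bp wide for 1276 members (95.9%). Sub-threshold genes made up 11.1% of protein-coding genes on chromosome X, 10.1% on 3L, 9.79% on 3R, 9.11% on 2L and 8.94% on 2R. On the small chromosome 4 they were 15 of 80 (18.8%, exact 95% interval 10.9 to 29), with 36 bound, and Eph (rank 5103), dpr7 (rank 9037) and Cals (rank 6712) were among them. On chromosome Y there were none of 23.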

How the data were processed

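Per the labels, anti-GFP chromatin immunoprecipitation was sequenced for 2 replicates of 1 group. Peak lists for each replicate, for the pool and for the optimal set were deposited on dm6. The aligner, the peak caller, its scaling and the depth were not given in the sources used here. The authors deposited a signal score per peak, used to rank lines within a list, and a −log10 q-value. Lists on dm3 and control reads were not used here. Whether the replicates were separate embryo collections is not stated in the labels.

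TSSs of protein-coding transcripts came from Ensembl release 115 (BDGP6), and sequence from the RefSeq Release 6 (dm6) genome. Each gene's motif window ran from −100 to 50 bp around the TSS with the most transcripts, the most upstream at ties. Intervals are exact Clopper-Pearson (95%), over lines, promoters or genes taken as independent. No test was run, since members were selected by signal. The members and gene lists were chosen with earlier results of these data known. Named genes were the 10 strongest members, up to 3 per list, all regulators, and the 5 weakest lines and 5 largest rank ratios. Of the strongest members, 1 is not reported here. Other list members, the genes at both edges of the threshold, the members within the first 5007 lines in both replicates and Unc-76 were named in addition, after their values were seen. Class assignment, offsets and the DRE search were tested on simulated data with 1 TSS per gene, and every planted case was recovered. Shared lines, genes with several TSSs, summits past the distance limits and the other elements were not simulated. Python 3.11.15, numpy 2.4.6, pandas 2.3.3, scipy 1.17.1 and matplotlib 3.10.9 were used.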

Additional observations from a re-analysis of the deposited data

How the results depend on the processing

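Of 139 alternative values, 99 moved by less than the main interval or stayed within 1.5 times the main count, and 40 moved further. Counts and shares have no direction that could change, and the median offset stayed upstream wherever it was recomputed. These values cover the sub-threshold group only, so its contrasts with bound and line-free promoters were not checked in this way. Without the replicate requirement there were 3028 lines at 2595 genes, the median offset was −18 bp, 56.8% lay upstream, and DRE, Motif 7, E-box, TATA box and Initiator shares were 9.9%, 9.06%, 17.1%, 5.09% and 23.2%. Dropping the match to each replicate in turn gave 1835 to 2262 lines and 1784 to 2103 genes, where the larger counts asked only for replicate 1. Median offsets were −25 to −20 bp, 58% to 61.4% lay upstream, DRE shares were 11.4% to 11.5% and E-box shares 18.3% to 19.2%. The pooled and optimal lists, made from both replicates, were unchanged here. Counts could therefore only rise, and no replicate was removed from the data. With the strongest 15000 lines of each list there were 872 lines, 67.4% upstream, 11.2% with an optimal summit within 1 kb, and 17.4%, 2.42% and 17.4% with DRE, TATA box and Initiator. A TSS distance of 100 bp gave −14 bp, 59.8% upstream, 16.3% within 1 kb of an optimal summit, DRE 16.8% and Initiator 18.1%, and 500 bp gave −38 bp and 5.25%. Replicate summits within 50 bp gave 66.8% upstream and 11.6% within 1 kb, and leaving out genes with an optimal summit within 500 bp gave 4.32%. A promoter window from −250 to 100 bp gave DRE 16.4%, Motif 7 14.2%, E-box 29.1%, GAGA 9.64%, Zelda 1.46% and CA repeat 6.14%. The cause of these shifts beyond the changed selection was not tested. In alternatives chosen after seeing the data, genes without an optimal summit within 1 kb had Motif 1 core at 0.32% and DRE at 13.5%, and 1002 lines had a −log10 q above 2. No paired analysis was possible because there is 1 group. Depth is unknown, so no interval covers read counting, and weak lines cannot be separated from background here.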

Other observations

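The 1369 sub-threshold genes differed in promoter elements from the 1226 genes with a pooled line that was not found in both replicates. DRE was found in 13.8% of the sub-threshold promoters (exact 95% interval 12 to 15.7), against 5.55% of those without both replicates (4.33 to 6.98), and Motif 7 in 11.7% (10 to 13.5), against 6.12% (4.84 to 7.61). The Initiator was found in 20.5% of the sub-threshold promoters (18.3 to 22.7), against 26.3% (23.8 to 28.8), and the TATA box in 3.65% (2.72 to 4.79), against 6.69% (5.35 to 8.23). For GAGA repeats the intervals overlapped, at 5.11% (4.01 to 6.42) against 6.28% (4.99 to 7.79). A divergent neighbour within 500 bp was present for 29.6% of the sub-threshold genes (27.2 to 32.1), against 15.3% (13.4 to 17.5). Median promoter GC content was 42.4% in the sub-threshold genes, against 45.7%. The genes without both replicates made up 8.78% of all 13968 genes. They included 13 of 52 neural transcription factors (25%), 10 of 45 signalling ligands and inhibitors (22.2%) and 10 of 36 muscle genes (27.8%), but 11 of 180 chemoreceptors (6.11%). Peak strength was not matched between these classes, and among members the DRE and Motif 7 shares at summits were lower in weaker rank groups. No difference between these classes was tested.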
